A study of Mus musculus with 30 samples.

Results

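A set of 10 heart muscle genes was followed through 30 blood samples of mice: Myh6, Myl2, Myl3, Myl7, Tnni3, Tnnt2, Actc1, Nppa, Mb and Ryr2. They are 10 of the 29676 genes measured, and they were chosen by the measured levels of heart markers, which had stood out on some arrays of this blood, drawn by cardiac puncture, so their levels across the arrays are given as a description, without a test. Every non-control probe carrying one of these gene names was taken, which gave 12 probes, with 2 each for Myh6 and Myl2. Blood RNA of male C57BL/6J mice was hybridised to one-colour Agilent arrays, 1 mouse to an array, in 6 groups of 5. The genotypes are named p38WT, p38DKI and p38DN after the p38 mitogen-activated protein kinase, and the labels do not spell out the alleles. Mice of each genotype were either unirradiated or had received 7 Gy of X-rays 24 h before euthanasia and blood collection. The design states 5 independent experiments for each genotype and treatment, and p-values measure the spread between these samples. The labels give no age and no count of heart muscle or other cells in the blood.

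Heart muscle contracts through sarcomeres, in which thick filaments of myosin pull on thin filaments of actin under the control of troponin and calcium. Several of their parts exist in chamber forms: Myl2 and Myl3 encode light chains of ventricular myosin, Myl7 the light chain of the atria, and Nppa a hormone that the healthy adult atria make far more of than the ventricles. Myh6 is the main myosin heavy chain of the adult mouse heart, Tnni3 and Tnnt2 are the heart forms of troponin I and troponin T, and Actc1 is cardiac actin. Mb encodes myoglobin, the oxygen store of heart and slow skeletal muscle, and Ryr2 the channel that releases calcium inside heart muscle cells. Circulating blood cells are not known as a source of the sarcomere proteins of this set, which is why troponins in plasma serve as clinical signs of heart injury.

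On 4 arrays 7 of the 10 transcripts lay far above their level on the others: replicate 2 of the irradiated p38WT group, replicate 3 of the irradiated p38DN group, and replicates 1 and 3 of the unirradiated p38WT group. The 7 genes were Myh6, Myl2, Myl3, Tnni3, Tnnt2, Actc1 and Mb, and for each of them all 4 arrays lay above all 26 others. The atrial genes Myl7 and Nppa and the calcium channel gene Ryr2 did not stand apart on these arrays. The 4 arrays belong to 3 groups and to both treatments. In the main fit none of the 10 genes passed in any comparison of irradiated with unirradiated mice. Of all genes 14.3% passed in p38WT, 18.8% in p38DKI and 15.1% in p38DN. Standard errors of up to 1.86 log2 units left several-fold differences undetectable for some of the 10. In p38DN Ryr2 passed with the array median as scaling and without scaling.

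The probes are 60 bases long, and 4 of them are shown here: those of 2 troponin genes that stood out, the second probe of Myh6, which stood out less than the first, and that of Myl7, which did not. Positions are those the array design gives on build mm9 of the mouse genome; an exon annotation of that build was not used here. The Tnnt2 probe covers chr1:137747976-137748288 on the plus strand, a span of 313 bases, and the Myl7 probe covers chr11:5798186-5798435 on the minus strand, a span of 250 bases. Both spans are longer than the probe, so the bases of each are joined across a gap in the genome. The Tnni3 probe lies at chr7:4472043-4472102 and the second Myh6 probe at chr14:55584132-55584191, both on the minus strand and without a gap.
Tnnt2: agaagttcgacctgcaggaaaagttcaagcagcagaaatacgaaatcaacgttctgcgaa
Tnni3: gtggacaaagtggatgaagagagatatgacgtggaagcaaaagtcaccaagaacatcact
Myh6, second probe: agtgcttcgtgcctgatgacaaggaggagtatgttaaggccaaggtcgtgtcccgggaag
Myl7: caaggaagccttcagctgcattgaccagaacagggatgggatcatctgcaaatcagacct

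The upstream sequences of the ventricular light chain gene Myl3 and the atrial light chain gene Myl7 are shown because the first stood out on the 4 arrays and the second did not. They are the 250 bases before the start site in RefSeq, build GRCm38.p6, at chr9:110763428-110763677 on the plus strand and chr11:5898783-5899032 on the minus strand. Capitals mark 2 kinds of motif, searched on both strands: the CArG box, bound by serum response factor, written as CC, then 6 bases that are A or T, then GG, and CATTCC with its reverse complement, the core of the MCAT element bound by TEAD factors.
Myl3: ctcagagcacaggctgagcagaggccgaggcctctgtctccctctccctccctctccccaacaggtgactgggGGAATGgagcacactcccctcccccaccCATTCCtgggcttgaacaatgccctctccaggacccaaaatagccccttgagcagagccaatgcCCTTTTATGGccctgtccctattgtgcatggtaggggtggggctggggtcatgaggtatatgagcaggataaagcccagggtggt
Myl7: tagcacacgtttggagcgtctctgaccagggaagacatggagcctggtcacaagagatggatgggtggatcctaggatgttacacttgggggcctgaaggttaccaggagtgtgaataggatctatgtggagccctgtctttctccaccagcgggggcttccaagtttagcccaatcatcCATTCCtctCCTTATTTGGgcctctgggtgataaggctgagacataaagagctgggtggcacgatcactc
Both windows hold both motifs. The 10 genes have 14 start-site windows in the table, of which 3 hold a CArG box (those of Myl3, Myl7 and Actc1) against 1.5% of 32851 mouse windows of this length. CATTCC is in 4 of the 14, from Myh6, Myl3, Myl7 and Tnnt2, against 12.6% of all windows. Other motifs were searched too and are not marked. The MEF2 site is in 0 of the 14 against 2.9% of all windows, and TATAAA in 2 against 12.4%. The E-box CANNTG is in 13 against 66.2%. The GATA sites AGATAA and TGATAA are in 2 each, against 10% and 7.9%. Some of the Mb windows overlap, so the 14 are not all separate. These shares are a description without a test. A match is a string of letters and not a measured binding site.

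Levels are given on the log2 scale relative to the 75th percentile of the array, so 0 is that percentile's signal, and a value describes 1 gene across arrays and not 1 gene against another. The 75th percentile of the processed signal ran from 43.3 to 230.4 over the arrays, and from 39.7% to 63.2% of the probes were well above background, the scanner software's call for a signal clear of the local background. All 10 blood cell markers checked, among them Alas2, Hbb-b1, Ptprc and Pf4, were well above background on all 30 arrays, so the labelled tissue was borne out by its markers. The p38DN arrays were scanned on other days and other slides than the p38WT and p38DKI arrays, so scan batch and the p38DN genotype cannot be told apart. Slide was also partly tied to treatment in the other genotypes. Unirradiated p38WT arrays lay on slides 1 and 2 and irradiated ones on 2 and 3. Unirradiated p38DKI arrays lay on slides 3 and 4 and irradiated ones on 4 and 5. There were 4 other arrays that stood apart by liver transcripts, replicate 2 of the irradiated p38DKI group and replicates 2, 4 and 5 of the unirradiated p38DN group, with a mean level of 14 liver genes from 7.07 to 8.87 log2 units above their medians.

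Myh6, the heavy chain, gave the clearest split of the thick filament genes. The 5 unirradiated p38WT arrays, replicates 1 to 5, read 5.46, -2.69, 3.70, -1.89 and -3.73, and the 5 irradiated ones read -3.14, 6.27, -2.49, -3.01 and -4.03. The p38DKI arrays read -2.97, -1.90, -3.46, -2.06 and 1.12 unirradiated and -1.31, -3.93, -2.53, -2.13 and -1.81 irradiated. The p38DN arrays read -2.10, -2.70, -2.60, -3.19 and -3.59 unirradiated and -2.70, -2.31, 5.72, -1.76 and -2.22 irradiated. In each group with a high array the high values stood alone, with nothing between 1.12, the highest of the other 26 arrays, and 3.70. Of those 26 arrays, 20 were well above background, so a low Myh6 signal was present on most of them. Set against the median array, with arrays not well above background raised to the lowest signal called above it, Myh6 was at least 380-fold higher on replicate 2 of irradiated p38WT, 259-fold on replicate 3 of irradiated p38DN, and 217-fold and 63.8-fold on replicates 1 and 3 of unirradiated p38WT. That bound is used for each fold below. In bulk blood RNA, fewer cells of a type and less RNA per cell cannot be told apart.

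The other Myh6 probe, whose sequence is shown above, starts at base 308 of the transcript in the array design, and the brighter one at base 6003 of the same transcript. On the same 4 arrays, in the order just used, the second probe read -0.03, -2.27, 0.12 and -0.66. Its level on replicate 3 of irradiated p38DN was not well above background, although the brighter probe there read 5.72. The highest level of the second probe on any array was 0.12. The values of Myh6 given here are those of the brighter probe.

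Myl2, the regulatory light chain of the ventricle, followed the same arrays. Unirradiated p38WT blood read 4.85, -1.75, 3.20, -1.75 and -1.28, and irradiated p38WT blood -0.96, 6.34, -0.53, -0.29 and -1.36. The p38DKI arrays read -0.80, -1.45, -1.88, -1.71 and 0.64 unirradiated and 0.37, -2.37, -0.33, 0.05 and 0.47 irradiated. The p38DN arrays read -1.73, -3.96, -2.35, -3.89 and -4.06 unirradiated and -1.76, -1.72, 5.27, -0.85 and -1.81 irradiated. The 4 high arrays were 2.56 log2 units or more above the next array, and the 4 arrays on which Myl2 was not well above background were all unirradiated p38DN. The fold over the median array was 203, 96.6, 72.1 and 23.0 in the order given for Myh6. A second Myl2 probe, designed on another transcript, was not well above background on any array and read from -7.07 to -3.02.

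Myl3, the essential light chain of the ventricle, had the same 4 high arrays and one feature of its own. Unirradiated p38WT blood read 5.37, -2.58, 3.62, -1.96 and -3.26, and irradiated p38WT blood -1.88, 6.72, -1.34, -1.39 and -1.91. The p38DKI arrays read -1.25, -2.09, -2.23, -1.98 and 0.71 unirradiated and 0.21, -2.86, -0.66, -0.39 and -0.12 irradiated. The p38DN arrays read 3.04, 1.78, 2.37, 1.32 and 2.11 unirradiated and 2.61, 0.98, 5.69, 1.26 and 2.05 irradiated. The 9 p38DN arrays outside the high 4 lay between 0.98 and 3.04, above every one of the 17 p38WT and p38DKI arrays outside the high 4, which lay between -3.26 and 0.71. With normexp background correction the ranges overlapped, at 0.08 to 2.11 and -1.65 to 0.36. Myl3 was the only one of the 10 genes well above background on all 30 arrays. Because of this shift the step from the lowest of the 4 arrays down to the next, p38DN unirradiated replicate 1, was 0.58, against 2.58 for Myh6.

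Myl7, the atrial light chain, stayed low. It was well above background on 2 arrays, replicate 4 of unirradiated p38DKI at -3.10 and replicate 1 of irradiated p38DKI at -2.85, and on none of the 4 high arrays, where it read -4.75, -4.46, -4.46 and -3.74. The other 26 arrays ran from -5.73 to -2.69. The highest of these, p38WT irradiated replicate 3, was itself not well above background.

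**Figure D1:**
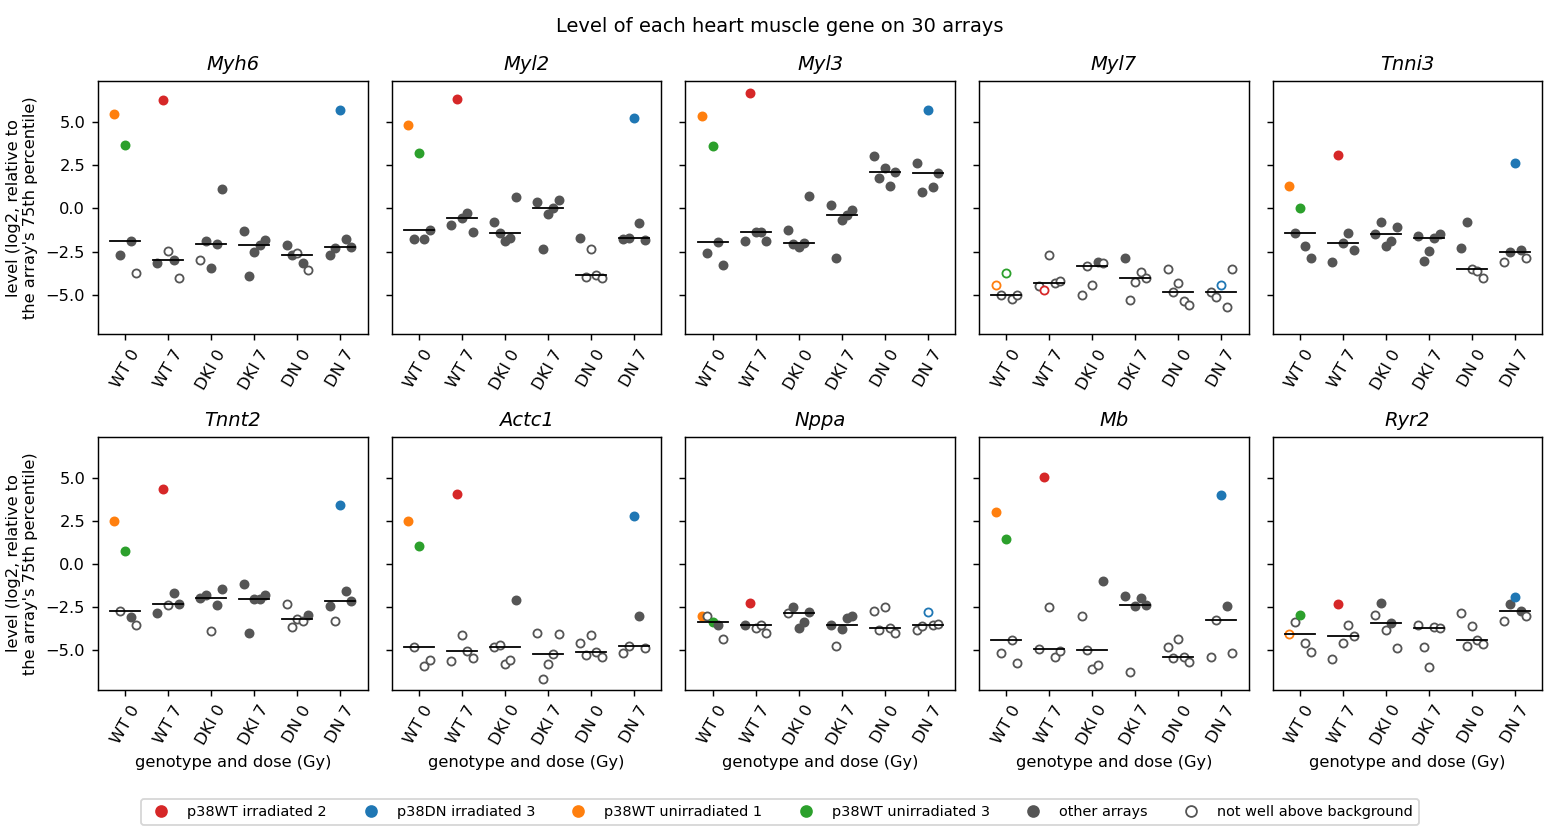
Level of each of the 10 genes on every array (log2, relative to the array's 75th percentile) by genotype and dose in Gy, with 1 point per mouse, a bar at the group median, filled points well above background and open points not, and colours for the 4 high arrays. For Myh6, Myl2, Myl3, Tnni3, Tnnt2, Actc1 and Mb the 4 coloured points lie above all others, and for Myl7, Nppa and Ryr2 they lie among them.

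The thin filament genes kept the order of the thick filament genes. Tnnt2, which anchors the troponin complex to tropomyosin, read 4.38 on replicate 2 of irradiated p38WT, 3.41 on replicate 3 of irradiated p38DN, and 2.52 and 0.76 on replicates 1 and 3 of unirradiated p38WT. The other 26 arrays lay between -3.96 and -1.12, with 17 of them well above background. Tnni3, the inhibitory subunit, read 3.11, 2.62, 1.32 and 0.00 on the same 4 arrays and -4.06 to -0.78 on the others. Tnnt2 and Tnni3 differed in how far they stood out, at least 52.4-fold and 25.8-fold over the median array on replicate 3 of irradiated p38DN. Actc1, the actin of the heart's thin filament, was well above background on only 6 arrays. It read 4.10, 2.77, 2.53 and 1.07 on the 4 high arrays and -6.63 to -2.07 on the others, of which replicate 5 of unirradiated p38DKI at -2.07 and replicate 4 of irradiated p38DN at -3.00 were well above background. Since the median array was not, the fold for Actc1 is a lower bound: at least 168-fold, 66.3-fold, 56.2-fold and 20.5-fold.

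Mb, myoglobin, showed the split together with a weaker layer in p38DKI blood. Unirradiated p38WT blood read 3.05, -5.14, 1.49, -4.40 and -5.75, and irradiated p38WT blood -4.92, 5.06, -2.49, -5.36 and -5.06. The p38DKI arrays read -2.99, -4.99, -6.05, -5.84 and -0.98 unirradiated and -1.82, -6.23, -2.41, -1.96 and -2.39 irradiated. The p38DN arrays read -4.80, -5.46, -4.32, -5.39 and -5.65 unirradiated and -5.38, -3.22, 4.02, -2.42 and -5.12 irradiated. Mb was well above background on 10 arrays: the 4 high ones, replicate 5 of unirradiated p38DKI, replicate 4 of irradiated p38DN, and 4 of the 5 irradiated p38DKI arrays. The exception among the last, replicate 2 at -6.23, is the array with the most liver transcripts. On the 4 high arrays the level was at least 273-fold, 133-fold, 67.9-fold and 23.0-fold that of the median array.

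Ryr2 and Nppa gave a different picture. Ryr2, the calcium release channel, was well above background on 7 arrays and read -2.30, -1.89, -4.03 and -2.92 on the 4 high arrays, while the others ran from -5.98 to -2.26. Its 2 highest values were the -1.89 of replicate 3 of irradiated p38DN and the -2.26 of replicate 2 of unirradiated p38DKI, which is not one of the 4. Nppa, the atrial natriuretic hormone, read -2.23, -2.78, -3.01 and -3.34 on the 4 arrays against -4.73 to -2.49 on the others. The highest Nppa value of all 30 was on replicate 2 of irradiated p38WT, the array with the most of the other transcripts, at 2.08-fold or more over the median array. On replicate 3 of irradiated p38DN Nppa was not well above background.

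The mean excess of the 10 genes, that is each level minus the gene's median over the 30 arrays, put the arrays in 1 order. For Actc1, Mb, Nppa, Ryr2 and Myl7 that median is not well above background, so their excess orders the arrays and is not a measured fold. Replicate 2 of irradiated p38WT stood at 5.58, replicate 3 of irradiated p38DN at 4.95, and replicates 1 and 3 of unirradiated p38WT at 4.27 and 3.29. Replicate 5 of unirradiated p38DKI followed at 1.52, just over the line of 1 (a doubling), and replicate 1 of irradiated p38DKI lay just outside it. The remaining arrays ran down to -1.48, on the liver-rich replicate 2 of irradiated p38DKI. On the first 3 arrays 7 of the 10 genes exceeded their median by more than 3 log2 units, and on the fourth 6 did, where 0.243%, 1.65%, 0.125% and 0.0977% of all genes did so. No other array had more than 2 such genes. Replicate 5 of unirradiated p38DKI had 2, Myh6 and Mb, at least 10.7-fold and 4.16-fold over the median array.

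**Figure D2:**
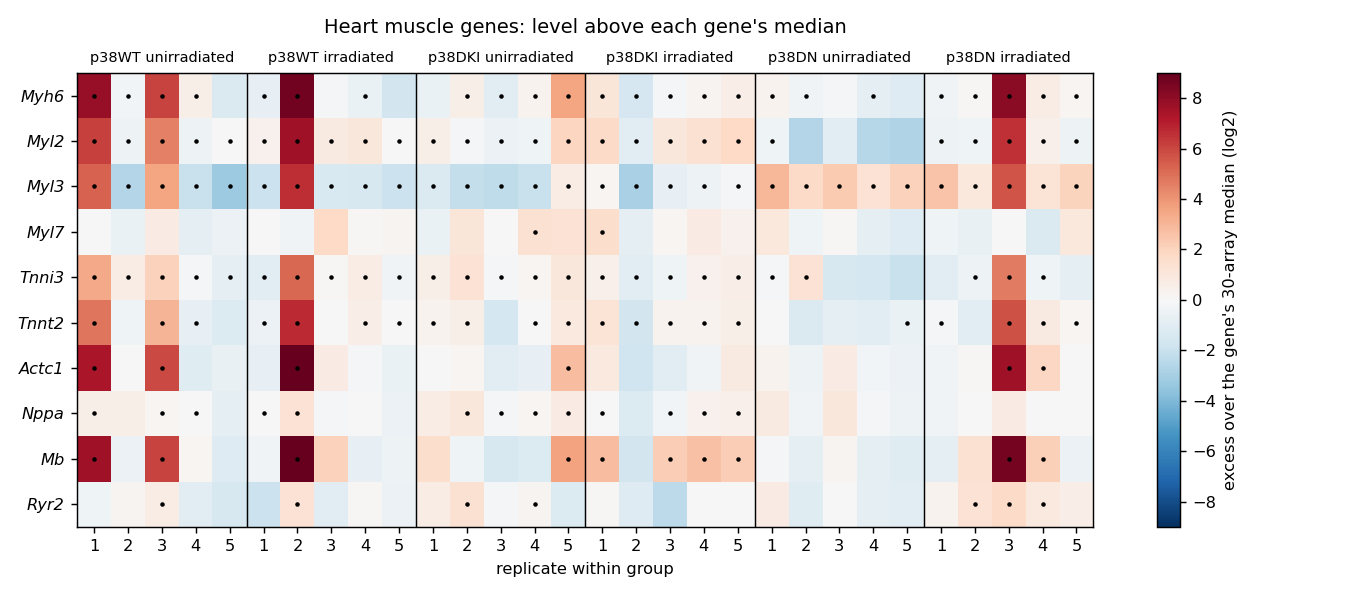
Excess of each gene (rows) over its own median on each of the 30 arrays (columns, in groups of 5), as a colour from blue, below the median, to red, above it, on a log2 scale, with a black dot where the probe was well above background. The 4 dark columns are replicates 1 and 3 of unirradiated p38WT, replicate 2 of irradiated p38WT and replicate 3 of irradiated p38DN, and the row of Myl3 is raised in p38DN.

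The distance between successive high arrays was similar from gene to gene at the lower end. From replicate 1 to replicate 3 of unirradiated p38WT the fall was 1.76 log2 units for Myh6, 1.65 for Myl2, 1.74 for Myl3, 1.76 for Tnnt2, 1.33 for Tnni3, 1.46 for Actc1 and 1.56 for Mb. From replicate 2 of irradiated p38WT to replicate 3 of irradiated p38DN it was between 0.49, for Tnni3, and 1.34, for Actc1. Both unirradiated arrays lie on slide 1, whose other 2 arrays, replicates 2 and 4 of unirradiated p38WT, had a mean excess of -0.35 and -0.53. Replicate 3 of irradiated p38DN shares slide 7 with replicate 3 of unirradiated p38DN, at 0.09. The high arrays therefore sat beside low arrays on the same slides.

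Across the 30 arrays Actc1, Myh6, Tnnt2, Mb and Myl2 tracked the mean of the other 9 genes with a Pearson correlation of 0.971, 0.970, 0.966, 0.941 and 0.911. Tnni3 had 0.878, Myl3 0.721, Nppa 0.595, Ryr2 0.460 and Myl7 0.138. The points are arrays of 1 scaling, 4 of them far above the rest. Over the 26 other arrays the values were 0.802 for Actc1, 0.804 for Myh6, 0.773 for Tnnt2, 0.698 for Mb, 0.641 for Nppa, 0.524 for Myl2, 0.494 for Myl7, 0.414 for Tnni3, 0.300 for Ryr2 and 0.132 for Myl3.

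Outside the set, 21811 genes well above background on at least 3 arrays were ranked by their Pearson correlation with the mean excess of the 10 genes, and the 15 closest are all known from striated muscle. Some entered the ranking only through the high arrays: 4 of the 15, Myom2, Myoz2, Ckm and Pln, were well above background on none of the other 26 arrays, and 8 were on at least 3 of those. Tcap, the titin cap of the sarcomere's Z disc, had 0.973 and was well above background on all 30 arrays. Next were Cox8b at 0.962, a muscle form of a cytochrome c oxidase subunit, Myom2 at 0.944, an M-band protein, and Ckmt2 at 0.944, the mitochondrial creatine kinase of muscle. Myoz2, Mybpc3, Fndc5, Cox6a2, Pgam2, Ckm, Cox7a1, Myh8, Pln, Nexn and Tnnc1 completed the 15, down to 0.822. Myom2 read 2.27, 0.42, -0.16 and -2.31 on the 4 high arrays, at least 49.1-fold, 13.6-fold, 9.10-fold and 2.05-fold over the median array. Cox8b was at least 174-fold over it on replicate 2 of irradiated p38WT, and Ckmt2 at least 84.4-fold.

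**Figure D3:**
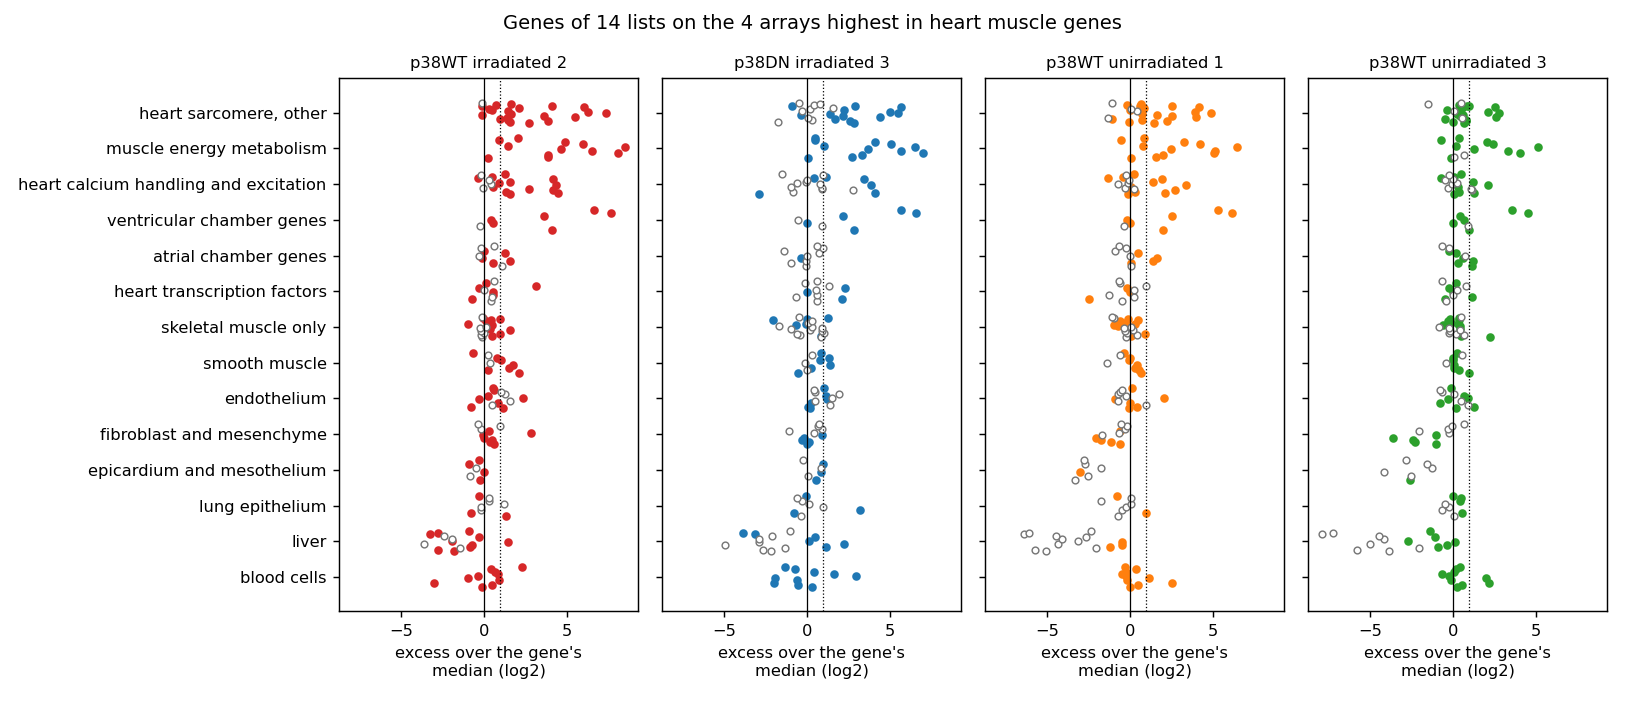
Excess of single genes of 14 lists over their own medians (log2) on each of the 4 high arrays, with filled points for probes well above background, open points for the others, a solid line at 0 and a dotted line at 1. The points to the far right belong to the sarcomere, energy metabolism, calcium handling and ventricular lists, and most liver points lie left of 0. The chamber lists are drawn with the members of the set, and those furthest right in the ventricular list are the members Myl2 and Myl3.

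Lists of related genes were written from general knowledge and share some genes. Myh7 is in the sarcomere, stress and ventricular lists and Kcnj3 in the calcium handling and atrial lists, so their counts are not separate. The lists were read on the 4 high arrays in the order replicate 2 of irradiated p38WT, replicate 3 of irradiated p38DN, replicate 1 and replicate 3 of unirradiated p38WT. Of all genes, 10.4%, 14.9%, 3.40% and 7.06% exceeded their own median by more than 1 on these arrays. Of 22 other sarcomere genes, 15, 12, 9 and 4 did, of which 15, 11, 9 and 4 were well above background on the array. Those on the second array include Ldb3 and Nrap, which were higher in irradiated p38DN than in irradiated p38WT blood, by 1.86 and 1.46. On the first array Tcap was at least 66.1-fold over the median array, Mybpc3, the myosin-binding protein C of the heart, 42.0-fold and Myoz2 22.4-fold. Of 12 genes of muscle energy metabolism, 10, 9, 8 and 6 exceeded 1. Among them Cox6a2 was at least 92.2-fold and the fatty acid carrier gene Fabp3 64.5-fold over the median array on the first array.

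Of 17 genes of calcium handling and excitation, 9, 5, 5 and 5 exceeded 1, of which 9, 4, 5 and 3 were well above background on the array. On the first array Hrc, a calcium-binding protein of the sarcoplasmic reticulum, was at least 20.2-fold over the median array, Atp2a2, the calcium pump of the heart's sarcoplasmic reticulum, 17.6-fold, Pln, which restrains that pump, 8.56-fold, and Casq2, the calcium store of heart muscle, 5.33-fold. Gja1, the main gap junction gene of the ventricle, was not well above background on any of the 30 arrays. Of 10 heart transcription factors 1, 3, 0 and 1 exceeded 1. The 3 were Mef2c, Gata6 and Nkx2-5, the last not well above background on that array. Mef2c and Gata6 were also higher in irradiated p38DN than in irradiated p38WT blood, by 1.56 and 1.60, with scan batch and genotype not told apart. Nkx2-5, which heart muscle cells express throughout life, was at least 4.10-fold over the median array on the first array and was well above background on 2 of the 30 arrays. Of the 5 natriuretic and stress genes 4, 2, 3 and 2 exceeded 1, of which 3, 1, 3 and 1 were well above background on the array. Ankrd1 was at least 9.05-fold over the median array on the first array.

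The chamber lists were read without the members, which had been picked for their levels. Of 5 other ventricular genes, 2, 2, 2 and 0 exceeded 1. These were Fhl2, a LIM-domain protein, at least 17.2-fold, 7.30-fold and 4.07-fold over the median array on the first 3 arrays, and Myh7, the slow myosin, at least 11.5-fold, 4.19-fold and 5.24-fold. Of 7 other atrial genes, 2, 0, 2 and 2 exceeded 1, of which 1, 0, 2 and 2 were well above background on the array. On the last of the 4 arrays the atrial count was thus above the ventricular one. Kcnj3, which forms a potassium channel of the atria, was 1.24-fold or more over the median array on the first array. Sln, an inhibitor of the calcium pump that the atria make, was not well above background on any of the 30 arrays.

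Skeletal muscle and the other tissues near the heart were read in the same way. Of 19 genes listed for skeletal muscle, 1, 2, 0 and 1 exceeded 1, of which 1, 1, 0 and 1 were well above background on the array. Most of the 19 are little used by the heart, but Xirp2 is also in the sarcomere list. The mean excess of the skeletal list was 0.24, 0.00, -0.17 and 0.20. Myh1 and Myh2, fast skeletal myosins, were not well above background on any array, and Myh4 was on 2. Myh8, a developmental skeletal myosin outside that list and among the 15 closest genes, was at least 13.1-fold, 24.5-fold, 5.84-fold and 2.20-fold over the median array. Of 9 smooth muscle genes 4, 2, 0 and 0 exceeded 1, and of 12 endothelial genes 5, 6, 1 and 1, of which 2, 3, 1 and 1 were well above background on the array. On replicate 3 of irradiated p38DN the mean excess of the endothelial list, 0.85, was above that of the calcium handling list, 0.75. The endothelial list was higher still on replicates 1 and 5 of irradiated p38DN, at 1.27 and 1.36, where the mean excess of the 10 genes was -0.07 and 0.21. On replicate 2 of irradiated p38WT the smooth muscle and endothelial lists, at 0.83 and 0.77, were above the heart transcription factors at 0.49. Outside the 4 arrays the smooth muscle list reached 1.35, on replicate 4 of irradiated p38WT, where the mean excess of the 10 genes was -0.05. The part of these cells in the heart muscle values was not tested. Of 8 lung epithelium genes 2, 1, 0 and 0 exceeded 1, of 10 fibroblast genes 1, 0, 0 and 0, of 8 adipocyte genes 2, 1, 0 and 0, and of 6 genes of epicardium and mesothelium none on the 4 arrays. The liver list had a mean excess of -1.65, -1.63, -3.46 and -3.33. The 4 liver-rich arrays and the 4 arrays high in heart muscle genes were different arrays.

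**Figure D4:**
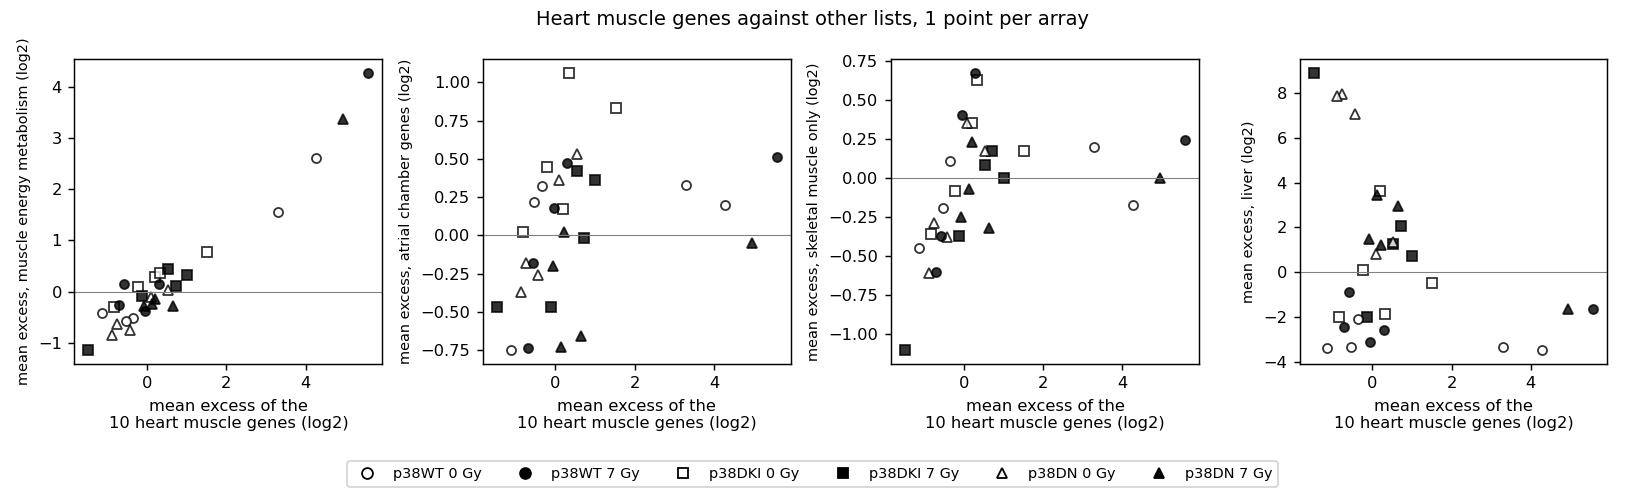
Mean excess of the 10 heart muscle genes (x axis, log2) against the mean excess of 4 lists (y axes, log2), with 1 point per array, shapes for genotype, open symbols for 0 Gy and filled symbols for 7 Gy. The energy metabolism genes of muscle rise to 4.26 on the array at 5.58, while the atrial list reaches 0.51 and the skeletal list 0.24 on the 4 arrays to the right and the liver list is below 0 there. The atrial list includes the members Myl7 and Nppa.

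Irradiation was compared within each genotype, which is the study's main question. The 4 high arrays enter these comparisons, 3 in p38WT and 1 in p38DN, and for most members they set both the difference and its error. All 6 groups share 1 estimate of the spread for each gene, so these arrays also enter the errors in p38DKI. In p38WT blood 0 of the 10 genes passed (limma, Benjamini-Hochberg over 29676 genes), where 14.3% of all genes did, and 0 had an unadjusted p under 0.05. The median difference, 7 Gy minus unirradiated, was -0.08 for the 10 genes and 0.08 for all genes, and the adjusted p ran from 0.535 to 0.996. Myh6 differed by -1.45 (SE 1.75, adjusted p = 0.692), with 2 high arrays among the unirradiated mice and 1 among the irradiated. Standard errors reached 1.86, for Mb, and a several-fold difference in either direction was not detectable for Mb, Myh6 and Actc1, whereas the standard error was 0.37 for Nppa and 0.56 for Ryr2.

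In p38DKI blood, where none of the 4 high arrays lies, 0 of 10 genes passed against 18.8% of all genes, and the median was -0.36 against -0.45 for all genes. The errors there still carried the spread of the high arrays, and the largest went from 1.86 to 0.89 without them. Mb differed by 1.21 (SE 1.86, adjusted p = 0.624), with 4 of 5 irradiated and 1 of 5 unirradiated arrays well above background. Ryr2 differed by -0.87 (SE 0.56, adjusted p = 0.253) and Nppa by -0.61 (SE 0.37, adjusted p = 0.228).

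In p38DN blood 0 of 10 genes passed against 15.1% of all genes, and 2, Myl2 and Ryr2, had an unadjusted p under 0.05. The median was 1.64 for the 10 genes and -0.02 for all genes. Myl2 differed by 3.03 (SE 1.39, adjusted p = 0.162) and Mb by 2.70 (SE 1.86, adjusted p = 0.420). Without replicate 3 of the irradiated group these became 1.66 and 1.09, and Myh6 went from 2.18 to 0.59. Over each single array left out the adjusted p of Myl2 lay between 0.137 and 0.491. Ryr2 differed by 1.40 (SE 0.56, adjusted p = 0.0974), and by 1.21 without that array. The unirradiated p38DN group holds the liver-rich replicates 2, 4 and 5, on which Myl2 read -3.96, -3.89 and -4.06. Without the 4 high and the 4 liver-rich arrays the Myl2 difference was 0.51 and the Ryr2 difference 0.38, with only replicates 1 and 3 left in the unirradiated group.

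Leaving out the 4 high arrays, an alternative chosen after the data were seen, narrowed the largest errors of the irradiation effects without adding a call. The largest standard error among the 10 genes went from 1.86 to 1.08 in p38WT and from 1.86 to 0.95 in p38DN. Through the shared estimate of the spread it also went from 1.86 to 0.89 in p38DKI. The 10 genes' median became 0.50 in p38WT, -0.36 in p38DKI and 0.52 in p38DN, and 0 passed in each, where 8.58%, 16.1% and 13.3% of all genes did. Myl2 in p38DN differed by 1.66 (SE 0.57). The arrays were left out for the levels of these same genes, so calls without them, here and between genotypes, are a description and no test.

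**Figure D5:**
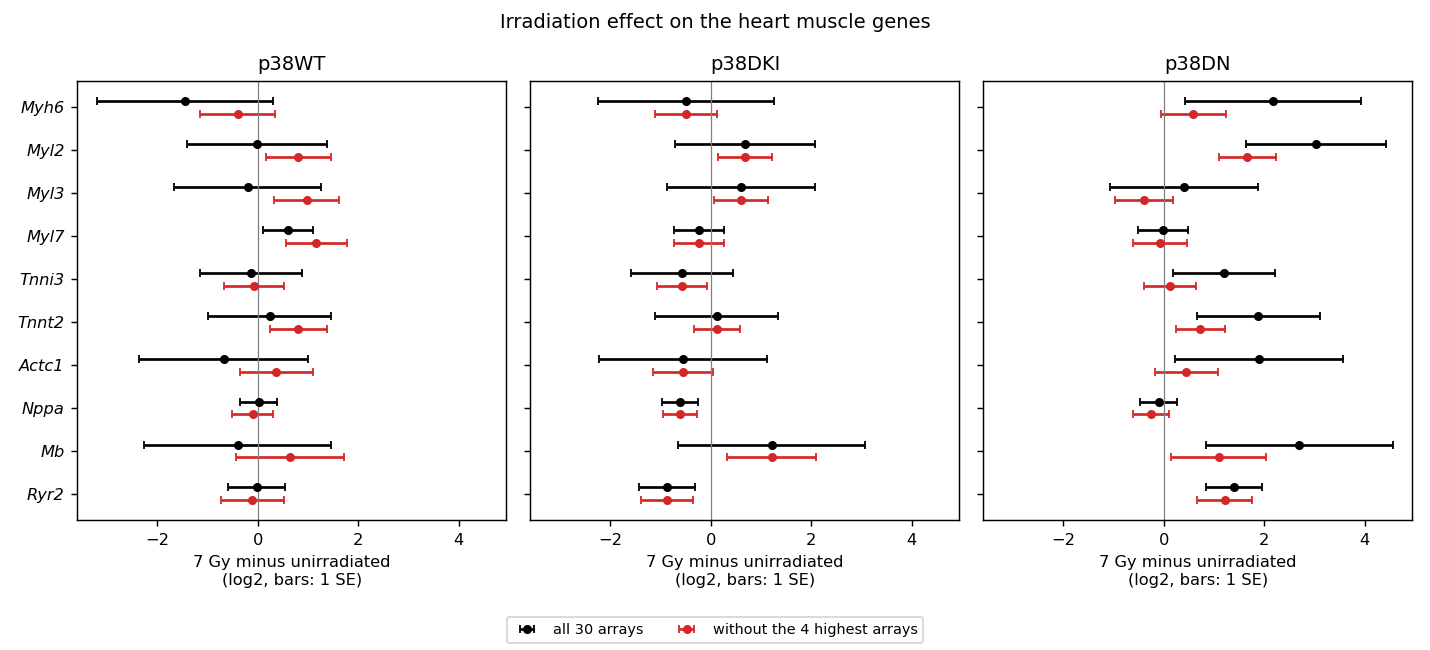
Difference between irradiated and unirradiated blood for each of the 10 genes (x axis, log2, points with bars of 1 standard error) in the 3 genotypes, over all 30 arrays in black and without the 4 high arrays in red. The black bars of Myh6, Actc1 and Mb span more than 3 log2 units, and the red bars of these genes are shorter in all 3 genotypes.

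Genotypes were compared within each treatment and by the difference of their irradiation effects. For p38DKI minus p38WT, 0 of 10 genes passed in unirradiated blood against 0.0539% of all genes and 0 of 10 in irradiated blood against 1.13% of all genes. The medians of the 10 were -1.35 and -0.85, with high arrays in p38WT only, and became 0.86 and 0.15 without the 4 high arrays, where 0 of 10 passed in each against 0.00674% and 0.283% of all genes. With or without these arrays the p-values do not show that the genotypes were alike. Myh6 differed by -2.03 (SE 1.75, adjusted p = 0.854) before irradiation. The difference of irradiation effects between p38DKI and p38WT passed for 0 of 10 genes against 0% of all genes, of which 3959 had an unadjusted p under 0.05 (limma). Between p38DN and p38WT it passed for 0 of 10 against 0.263%. In each of these 4 comparisons 0 of the 10 had an unadjusted p under 0.05. In the last the lowest adjusted p was 0.473, for Ryr2. These comparisons share the p38WT arrays. Of the 12 energy metabolism genes 1, Pygm, the muscle glycogen phosphorylase, was lower in irradiated p38DKI than in irradiated p38WT blood, at -1.43 (adjusted p = 0.0396).

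The level of Myl3 in p38DN blood was also compared with p38WT blood, with scan batch and genotype not told apart and after the values were seen. Over all arrays the difference, p38DN minus p38WT, was 1.89 (SE 1.47, adjusted p = 0.320) in unirradiated and 2.48 (SE 1.47, adjusted p = 0.246) in irradiated mice. Without the 4 high arrays, which were left out for the levels of these same genes, it was 4.72 and 3.36, given as a description with no test. With normexp on all arrays the Myl3 differences were 0.20 and 0.77. With all arrays 1 of 10 genes passed in unirradiated mice, Myl2 at -3.85 (SE 1.39, adjusted p = 0.0303) against 37.1% of all genes. The unirradiated p38WT group holds the high replicates 1 and 3, and the set was picked for heart markers on such arrays. The Myl2 call and its alternatives are therefore a description and no independent support. Myl2 also passed with the percentile over detected probes (-3.56, adjusted p = 0.0431) and the array median (-3.84, adjusted p = 0.0225). The same was so with no scaling (-4.22, adjusted p = 0.0101) and the deposited values (-3.57, adjusted p = 0.0287). The call was lost with normexp (-1.46, adjusted p = 0.196) and without the 4 liver-rich arrays (-2.70, adjusted p = 0.293). The latter fit kept only replicates 1 and 3 of unirradiated p38DN, so less power and liver content cannot be told apart there. The mean over all probes lost it too (-1.99, adjusted p = 0.0659). Without the 4 high arrays the Myl2 difference was -1.60, given with no test. In irradiated mice 0 of 10 passed against 26.2%, with Ryr2 at 1.37 (adjusted p = 0.0744). Ryr2 passed there with the percentile over detected probes (1.73, adjusted p = 0.0236) and the array median (1.41, adjusted p = 0.0271). It also passed with no scaling (1.53, adjusted p = 0.0271) and the deposited values (1.41, adjusted p = 0.0382), while with normexp it read 0.23 (adjusted p = 0.937). Without the 4 high and 4 liver-rich arrays the Ryr2 difference was 1.61, given with no test.

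Among the related lists a few genes did pass in the irradiation comparisons, in which 8.18% of all genes were higher and 6.17% lower in p38WT, 6.6% and 12.2% in p38DKI, and 9.64% and 5.48% in p38DN. In p38WT and p38DKI slide is partly tied to treatment. With slide as a fixed block the calls over all genes went from 4258 to 91 in p38WT and from 5570 to 337 in p38DKI. The part of slide in the list calls below was not tested. Of the 22 other sarcomere genes, 2 were higher and 1 lower in p38WT, 1 and 2 in p38DKI, and 2 and 1 in p38DN, with a list median of 0.18, -0.55 and 0.44. Myl4, the atrial and embryonic light chain, fell in all 3 genotypes, by 1.09, 1.57 and 0.98 on the log2 scale (SE 0.25; adjusted p = 0.00335, 7.84e-05 and 0.00753), and was well above background on all 30 arrays. Myom1, an M-band protein, rose by 1.32 in p38WT (adjusted p = 0.0483) and 2.55 in p38DN (adjusted p = 0.000211). Cmya5, a Z-disc-associated protein, rose by 1.22 in p38WT (adjusted p = 0.00307) and 0.82 in p38DKI (adjusted p = 0.0399). Ldb3, another Z-disc gene, fell by 1.17 in p38DKI (adjusted p = 0.0156). Myh7, the slow myosin, was 2.59 higher in irradiated p38DN blood (adjusted p = 0.0474), with overlapping groups. The irradiated group holds the high replicate 3, on which Myh7 lay 2.20 above its median. The part of that array and of the liver-rich unirradiated arrays in the Myh7 difference was not tested.

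Of the 17 calcium handling and excitation genes 1 was higher in p38WT and 1 in p38DN, in both cases Kcnq1, a potassium channel gene, by 2.17 and 2.13 (adjusted p = 0.0458 and 0.0482). Of the 10 transcription factors 0 passed in p38WT; Gata6 rose by 2.56 in p38DKI (adjusted p = 0.00243) and 2.77 in p38DN (adjusted p = 0.00111), and Irx4 and Hand1 fell in p38DKI by 0.97 and 1.28 (adjusted p = 0.0150 and 0.0393). Of the 12 energy metabolism genes Pygm rose by 1.32 in p38WT (adjusted p = 0.00896), and in p38DKI Adssl1 rose by 0.99 (adjusted p = 0.0209) and Eno3 fell by 1.12 (adjusted p = 0.0385), while 0 passed in p38DN. Of the 19 skeletal genes 2 rose in p38WT, Tnnt1 by 1.74 and Pvalb by 1.33 (adjusted p = 0.00190 and 0.00422), 2 fell in p38DKI, Mybpc2 and Tnnc2, and Tnnt1 rose by 1.45 in p38DN (adjusted p = 0.00815). Lists of other tissues are given by counts in p38WT, p38DKI and p38DN. Of 6 epicardium and mesothelium genes 1, 6 and 3 rose, of 10 fibroblast genes 0, 6 and 3, of 12 endothelial genes 2, 3 and 2, of 9 smooth muscle genes 3, 1 and 2, and of 8 adipocyte genes 0, 3 and 1. In each genotype 1 endothelial gene, Cd36, fell, and 1 smooth muscle gene fell in p38DN. Of 8 lung genes 0, 0 and 1 rose and 1, 2 and 1 fell, and of 10 blood genes 4, 2 and 2 rose and 2, 4 and 3 fell. None of 14 liver genes passed. Their part in the changes of the heart and muscle lists was not tested.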

How the data were processed

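Scanner files of 30 one-colour arrays gave processed signal intensity, already background-corrected by Agilent Feature Extraction 12.0.2 per the submitters' processing notes. The deposited log2 value table holds 7 of the 10 genes and served as an alternative; it equals the log2 processed signal plus a constant per array for once-spotted probes. Outlier spots were left out, replicate spots averaged, log2 values scaled to each array's 75th percentile, and the brightest probe taken for each gene. All 29676 genes with a value on at least 20 arrays were tested in 1 fit of 6 group means with limma 3.58.1 (R 4.3.3), adjusted by Benjamini-Hochberg at 0.05. A fit on simulated data with known changes was checked first. No filter on dim probes was used, so that all 10 genes were tested; 7 of the 10 (not Myl7, Actc1, Ryr2) are well above background on at least 4 of 5 arrays of a group. The members, lists and comparisons were chosen with earlier results of these data known. Genes named are the 10 members, the 15 most alike, up to 4 leading genes of a list on the highest array, and list genes that passed, named for the heart and muscle lists and given as counts for other tissues; 1 is not reported here; Gja1, Sln, Myh1, Myh2, Myh4 and Cd36 were named after their values were seen. Alternatives were other scalings, normexp with an offset of 50, the deposited table, slide and replicate blocks, a dim-probe filter, and arrays left out. Same-numbered arrays do not come from 1 mouse; correlations of their deviations ran from -0.257 to 0.433, so the numbers were not taken as pairs, although p38DN numbers share a slide.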

Additional observations from a re-analysis of the deposited data

Results flagged for a closer look

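In the 60 sets of 5 arrays (10 genes in 6 groups), 17 held an array far from its 4 neighbours, by a gap to the nearest that took up more of the whole range than Dixon's limit for 5 samples; chance alone flags about 1 set in 20 where values are independent. The genes were picked for standing out and vary together, so the count is a description and no test. Replicate 2 of irradiated p38WT was flagged high for Myh6 (6.27), Myl2 (6.34), Myl3 (6.72), Tnni3 (3.11), Tnnt2 (4.38), Actc1 (4.10), Mb (5.06) and Nppa (-2.23, against -3.55 for the next array). Replicate 3 of irradiated p38DN was flagged high for Myh6 (5.72), Myl2 (5.27), Tnni3 (2.62), Tnnt2 (3.41) and Actc1 (2.77). Its Myl3 and Mb values did not pass this limit. Replicate 2 of irradiated p38DKI was flagged low for Myl2 (-2.37), Myl3 (-2.86) and Mb (-6.23). It is the array with the highest liver list, at 8.87 log2 units, and the part of that in the low values was not tested. Myl7 on replicate 3 of irradiated p38WT (-2.69) was flagged high, although it was not well above background there. In unirradiated p38WT no gene was flagged, since 2 of the 5 arrays are high together and neither is alone.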

How the results depend on the processing

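The number of arrays with a mean excess over 1 was 5, and 4 to 6 under each scaling, normexp, the deposited values, the mean over probes and with each gene left out. The same 4 arrays led under all 8 settings computed, at 3.29 to 5.58 in the main setting and 1.43 to 3.44 with normexp. With the deposited values, which lack Actc1, Nppa and Mb, replicate 3 of irradiated p38DN (5.49) was above replicate 2 of irradiated p38WT (4.86). In p38DN, the number of members passing after irradiation was 0, but 1 with the array median and 1 without scaling: Ryr2 at 1.42 (adjusted p = 0.0424) and 1.50 (adjusted p = 0.0487). Leaving out 1 array at a time gave 0 to 1 members there, the 1 being Ryr2 without replicate 1 of the unirradiated group (adjusted p = 0.0465), and 0 in the 6 other planned comparisons. With the replicate block 0 members passed in each of the 7 planned comparisons, so it changed no call of theirs. Of 868 single values under alternatives 141 turned sign, none called before or after. The counts over all genes that give the background moved most under a fixed slide block (4258 to 91 in p38WT, 5570 to 337 in p38DKI) and under normexp (4488 to 281 in p38DN, 335 to 1 for irradiated p38DKI minus p38WT, 16 to 1 unirradiated, 78 to 1 for the p38DN interaction, 7764 to 644 for irradiated p38DN minus p38WT). They rose to 7511 in p38DKI, 1748, 55 and 160 with slide as a random block and to 307 with the dim-probe filter in the p38DN interaction. Signal over background limits Actc1, Mb, Nppa, Ryr2 and Myl7, dim on most arrays.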
